A study of Homo sapiens with 3 samples.

Results

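The 10 box C/D small nucleolar RNAs (snoRNAs) that lie in introns of the non-coding gene GAS5 (SNORD74, SNORD75, SNORD76, SNORD77, SNORD44, SNORD78, SNORD79, SNORD80, SNORD47 and SNORD81) were followed in small RNA libraries of HEK293 cells. Members were taken by name, as the entries U44, U47, U74 to U81 of the box C/D tables, and the rule itself uses no read count. All 10 had reads in every library, of 147 box C/D entries and 260 snoRNA entries in all. The study sequenced small RNA from HEK293, an established line of human embryonic kidney cells, in 3 libraries that form 1 group. The cells were kept in serum-supplemented DMEM with penicillin and streptomycin, and the labels name no treatment or genetic change. Separate cultures are not stated in the labels. The p-values below therefore reflect only counting error and how ratios within a library differ between libraries, and that spread could be technical. The files used here hold snoRNA reads, so the labelled cell type was not checked against marker genes.

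Box C/D snoRNAs direct the methylation of rRNA at the 2′ oxygen of single nucleotides. A stretch next to the D or D′ box pairs with the rRNA, and the fifth nucleotide before the box marks the base that fibrillarin methylates. In human cells most of them are cut from spliced introns: exonucleases trim the debranched intron until they meet the proteins SNU13, NOP56, NOP58 and fibrillarin on the paired C and D boxes. GAS5 is a 5′-terminal oligopyrimidine gene whose spliced exons are turned over quickly, while its introns yield the snoRNAs. SNORD44 is known as a guide for the small-subunit rRNA and as a reference RNA in small RNA qPCR, and the other members are known as guides for the large-subunit rRNA.

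GAS5 lies on the minus strand of chromosome 1 (chr1:173863900-173868882, GRCh38, GENCODE 29). In 2 of its 29 annotated transcripts each of the 10 members had an intron of its own. In the transcript used here, which has 12 introns, the members lay in introns 2 to 9, 11 and 12, in the order in which they are listed above. The distance from the end of the member to the next exon was 64 to 94 nt for 8 members, 128 nt for SNORD80 and 630 nt for SNORD74.

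Sequence was found for 8 members, by the positions of RefSeq's gene table (GRCh38.p14) in GENCODE 29 transcripts of GAS5 that keep the introns. They are shown because the reads of SNORD74, SNORD77, SNORD44 and SNORD81 are set against these boxes further on, and the other 4 for comparison. Capitals mark the first TGATG, the core of box C, and the last CTGA, box D.
SNORD74 (chr1:173867674-173867745): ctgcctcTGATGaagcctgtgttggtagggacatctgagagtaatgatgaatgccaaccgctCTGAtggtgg
SNORD76 (chr1:173866635-173866715): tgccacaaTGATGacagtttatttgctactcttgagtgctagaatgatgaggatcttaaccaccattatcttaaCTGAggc
SNORD77 (chr1:173866301-173866370): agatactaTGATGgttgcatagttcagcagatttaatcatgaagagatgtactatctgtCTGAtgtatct
SNORD44 (chr1:173865968-173866028): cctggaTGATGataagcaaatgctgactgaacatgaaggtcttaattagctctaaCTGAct
SNORD79 (chr1:173865350-173865430): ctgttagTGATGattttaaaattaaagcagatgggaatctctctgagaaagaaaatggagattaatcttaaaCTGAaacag
SNORD80 (chr1:173864833-173864903): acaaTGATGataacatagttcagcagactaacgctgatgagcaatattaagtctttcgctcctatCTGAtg
SNORD47 (chr1:173864369-173864445): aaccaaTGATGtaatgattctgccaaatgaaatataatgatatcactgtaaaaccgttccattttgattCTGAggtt
SNORD81 (chr1:173864146-173864222): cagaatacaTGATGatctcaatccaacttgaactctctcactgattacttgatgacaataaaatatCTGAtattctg

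All sequences are written 5′ to 3′ on the minus strand. TGATG and CTGA were searched on that strand only, the one transcribed, and they overlap by 3 letters where they run together (CTGATG). The core of box C (TGATG) was found in 8 of 8 members and in 88.1% of 135 SNORD transcripts of 61 to 81 nt in the same annotation, and box D (CTGA) in 8 of 8 and in 97.8%. Members shared little sequence: of 28 pairs the longest common stretch was 14 nt, catagttcagcaga in SNORD77 and SNORD80, which are known to guide the same large-subunit position, and the next longest was 10 nt. No read was shorter than 18 nt, so no read lay within a stretch that 2 of these members share.

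The deposited files number positions within each snoRNA entry and give no sequence, so the numbering may differ from RefSeq's. In SNORD74, SNORD77, SNORD44 and SNORD81 the commonest end of near full-length reads (positions 68, 65, 61 and 72) lay 2 nt past the D box in RefSeq numbering, and the commonest start lay 5 or 6 nt before TGATG. In these 4 members positions are read against the letters above. In the other 4 the numbering did not match this way. The main read of SNORD47 (positions 1 to 65) is shorter than the 67 nt from TGATG to the D box of RefSeq's gene, and SNORD80 and SNORD79 had positions up to 78 and 85 against RefSeq lengths of 71 and 81 nt. SNORD44 also had positions up to 63 against a RefSeq length of 61 nt. Its letters therefore rest on the match of its main ends alone.

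The libraries held 19989, 11958 and 19092 counts on snoRNAs. Library 2 had shorter reads than the others: reads of up to 40 nt, called short here, were 27.3% of its counts against 11.9% and 12.1% in libraries 1 and 3. A count of 0 allows a share of up to 0.0150%, 0.0251% and 0.0157% of a library (3 counts). Intervals and this floor cover counting error only, since the reads carry no molecular identifiers and PCR copies count again.

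SNORD44 and SNORD78, neighbours in the middle of the gene, and SNORD80 were the abundant members. Together they took 72.1%, 70.5% and 60.2% of the reads of the 10 members in libraries 1, 2 and 3. Levels are given as percent of all snoRNA counts per 100 nt of RNA, with the length taken as the highest position seen. In these bulk libraries fewer cells with an RNA and less RNA per cell cannot be told apart.

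SNORD44 had 617, 676 and 469 reads and levels of 4.90, 8.97 and 3.90% per 100 nt (5.92 ± 2.7, SD, n = 3), the highest mean per 100 nt of the 147 box C/D entries. SNORD78 had 492, 612 and 319 reads and levels of 3.85, 7.997 and 2.61% per 100 nt (4.82 ± 2.8), the fourth highest. Both ranks are for levels divided by length, and ranks by reads alone are not given. The box C/D entry U31 had 891, 320 and 452 near full-length reads and 201, 95 and 99 others in libraries 1, 2 and 3. By reads alone U31 was thus above SNORD44 in libraries 1 and 3 and below it in library 2. SNORD80 had 381, 286 and 601 reads and levels of 2.44, 3.07 and 4.04% per 100 nt (3.18 ± 0.80). Library 2 was the highest for SNORD44 and SNORD78 and library 3 for SNORD80. SNORD44 was above SNORD78 in 3 of 3 libraries and SNORD78 above SNORD80 in 2 of 3, with overlapping ranges in both pairs.

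The other members were lower, with no overlap between SNORD80 and SNORD75. SNORD75 had 121, 173 and 176 reads (1.01, 2.41 and 1.54% per 100 nt). SNORD74, the first in the gene, had 116, 165 and 133 (0.806, 1.92 and 0.968). SNORD79 had 143, 100 and 284 (0.842, 0.984 and 1.75). These 3 guides overlapped one another in range, and the order of SNORD74 and SNORD79 held in 1 of 3 libraries.

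At the low end were both members at the 3′ end of the gene. SNORD77 had 31, 115 and 60 reads (0.228, 1.41 and 0.462% per 100 nt). SNORD47 had 44, 28 and 102 (0.339, 0.360 and 0.822), and SNORD81, the last, had 35, 37 and 97 (0.240, 0.424 and 0.696). SNORD76 had 87, 42 and 66 (0.544, 0.439 and 0.432). The ranges of these 4 overlapped from each neighbour to the next in the order of means. All 10 means were above the median of 0.369% per 100 nt over the 147 box C/D entries, and the median of the 10 was 1.21, against 1.04 for the 8 box C/D snoRNAs of SNHG1, another non-coding host, and 0.349 for the 137 box C/D entries outside GAS5. Levels therefore went neither steadily up nor down along GAS5.

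**Figure D1:**
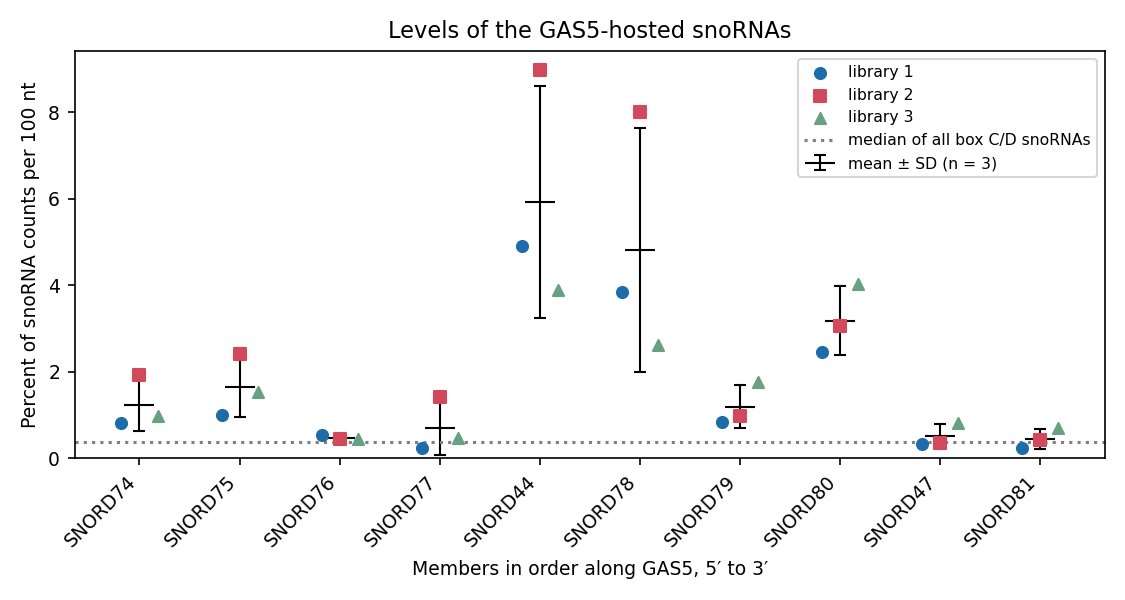
Level of each member in percent of snoRNA counts per 100 nt (y axis) in the order of the members along GAS5 (x axis). Points are libraries, black bars the mean ± SD (n = 3), and the dotted line the median of 0.369 over all box C/D entries. SNORD44, SNORD78 and SNORD80 stand above the rest, and library 2 is the highest for SNORD44 and SNORD78.

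The members did not vary between libraries in step. The highest and lowest share of a member differed 1.26-fold in SNORD76, 1.65-fold in SNORD80, 3.06-fold in SNORD78 and 6.20-fold in SNORD77, with a median of 2.38-fold over the 10 members, 1.78-fold over 7 SNHG1-hosted and 1.67-fold over 98 other box C/D snoRNAs (each list limited to entries of 10 or more counts per library). SNORD44, SNORD78, SNORD74, SNORD75 and SNORD77 were highest in library 2, SNORD79, SNORD80, SNORD47 and SNORD81 in library 3, and SNORD76 in library 1. The 4 members that lie last along GAS5 were thus all highest in library 3. How many other box C/D snoRNAs were highest in that library was not counted, so this is a description only. In sum the members took 10.3%, 18.7% and 12.1% of counts, 13.7% ± 4.4 (SD, n = 3), and 11.2% without library 2.

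Most reads of most members were close to full length, meaning that they span at least 90% of the highest position seen. SNORD75 was the most intact, with 90.9%, 94.2% and 94.3% of its reads full length (110 of 121, 163 of 173 and 166 of 176). A single read, from position 1 to 60, made up 82.1% of its reads. SNORD80 followed with 77.2%, 81.5% and 86.5%, most of them from 3 to 74 (779 of 1268 reads). In SNORD44 the shares were 67.9%, 52.1% and 74.2%, and the leading reads ran from 1 to 61 (248, 172 and 180) and from 2 to 61 (90, 100 and 87).

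SNORD78 had 66.3%, 32.2% and 64.6% full-length reads (95% exact intervals 61.9% to 70.4%, 28.5% to 36.1% and 59.1% to 69.8%), lowest in library 2. SNORD74, SNORD76 and SNORD79 were lowest in that library too (45.5%, 33.3% and 44%). SNORD77 had 45.2%, 58.3% and 60.0%, and SNORD47 had 54.5%, 64.3% and 78.4%. SNORD81 had 31.4% and 29.7% in libraries 1 and 2 and 73.2% in library 3 (95% exact intervals 16.9% to 49.3%, 15.9% to 46.98% and 63.2% to 81.7%).

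SNORD79 ended at more than one place. Its commonest reads ran from 5 to 80 (22, 16 and 66 reads) and from 4 to 83 (27, 14 and 49), and the former spans 76 of 85 positions, just under the 90% limit. Its full-length share of 54.5%, 44% and 52.5% therefore leaves out one of its main forms.

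The ratio of full-length to other reads was tested with edgeR's quasi-likelihood test against that of a typical snoRNA in the same library (TMM scaling, library as block, Benjamini-Hochberg over 125 snoRNAs of 10 or more counts per library). SNORD75 (log2 difference 2.47 ± 0.31, SE, edgeR adjusted p = 3.511e-05) and SNORD80 (0.85 ± 0.25, edgeR adjusted p = 0.01289) had a higher ratio in 3 of 3 libraries. For SNORD80 the direction turned with a limit of 95% (-6.18), which its main read of 72 of 78 positions misses. SNORD81 (-1.51 ± 0.54), SNORD79 (-1.32 ± 0.20), SNORD78 (-1.08 ± 0.31), SNORD76 (-1.08 ± 0.40) and SNORD77 (-0.98 ± 0.37) had a lower one in 3 of 3 libraries, with edgeR adjusted p of 0.03263, 0.000172, 0.01121, 0.03838 and 0.04164. SNORD44 (-0.43 ± 0.26), SNORD47 (-0.33 ± 0.48) and SNORD74 (-0.54 ± 0.25) did not pass. These 3 were called lower under some other definitions. SNORD44 (-0.67) and SNORD74 (-0.74) were called with a limit of 80%. SNORD74 was called with 95% (-6.17), which its main read of 67 of 72 positions misses. SNORD47 was called with annotated lengths (-9.86), where its main read spans 65 of 77 nt.

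Lower ratios in 5 of 10 members compare with 37.6% of all snoRNAs tested, and higher ratios in 2 of 10 with 23.2%. The median log2 difference was -0.76 over the members, -0.21 over all 125 and 0.69 over 7 SNHG1-hosted snoRNAs. SNORD75 kept its call in all 12 alternatives. The lower calls were less firm: with column totals as library sizes, which moved all log2 values by a median of 0.52, only SNORD79 was called lower among the members and the split over all snoRNAs was 34 lower and 45 higher in place of 47 and 29. The SNORD79 call in turn was lost with a limit of 80% (-0.10) and with annotated lengths (-0.10). It was also lost with both ends within 5 nt of the commonest ends (-0.17), an alternative added after seeing the data. Leaving out single libraries ended the calls of SNORD76 and SNORD77 (each of the 3 libraries), SNORD78 (-1.29 without library 1, -1.13 without library 3), SNORD81 (-0.93 without library 1, -1.14 without library 2) and SNORD80 (0.86 without library 3). Values also moved where a call held: SNORD78 went to -0.57 without library 2 and SNORD81 to -2.24 without library 3. SNORD76 went to -0.68 without library 2 and SNORD77 to -0.59 without library 1. Without the library block, SNORD76, SNORD77, SNORD78, SNORD80 and SNORD81 lost their calls, and the members had 1 lower and 1 higher call.

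**Figure D2:**
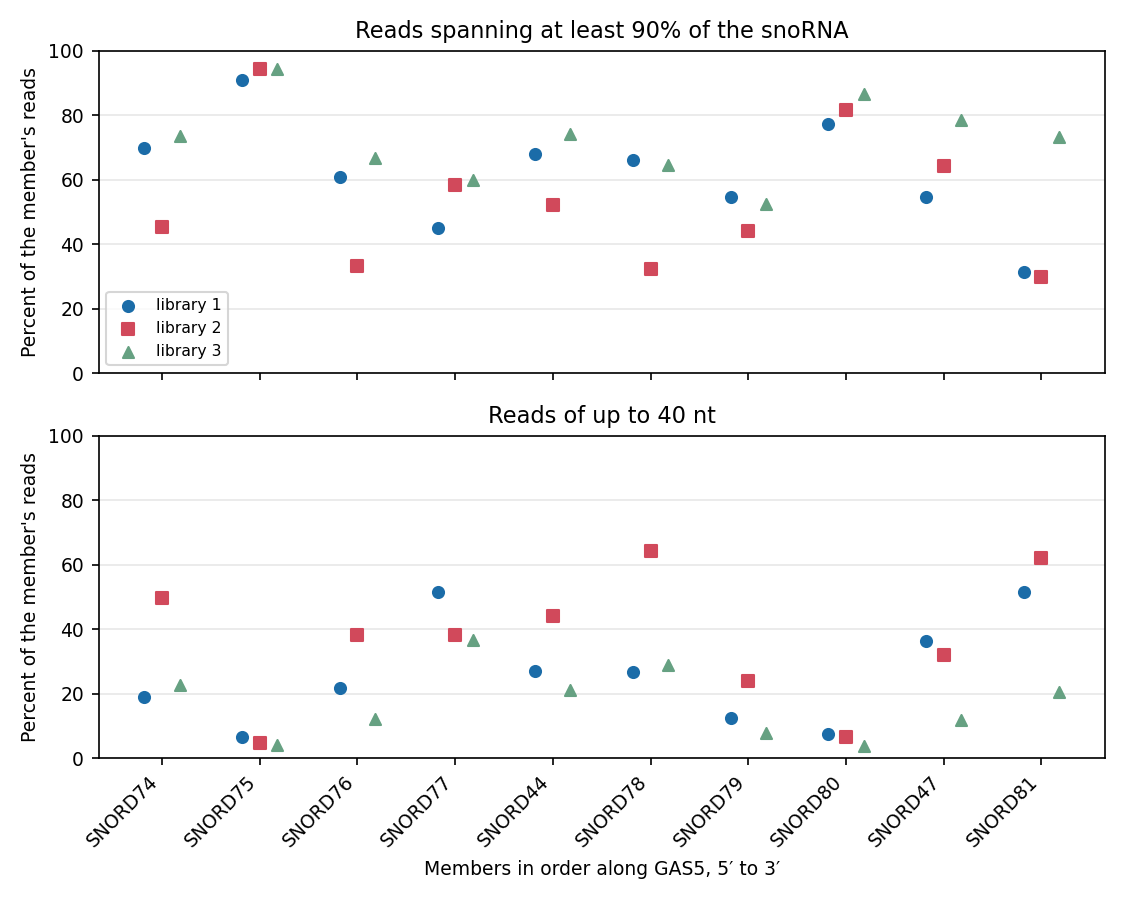
Percent of each member's reads (y axes) that span at least 90% of the snoRNA (top) or have up to 40 nt (bottom), for members in order along GAS5 (x axis). Points are libraries. SNORD75 and SNORD80 have the most full-length and the fewest short reads in each library, and SNORD78 and SNORD74 have their highest share of short reads in library 2.

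SNORD78 and SNORD44, the most abundant members, also gave the most short reads. By reads of up to 40 nt they ranked first and second of 237 snoRNA entries with such reads, with 617 and 563 over the 3 libraries. Library 2 decided the order of these 2, since SNORD44 had more than SNORD78 in libraries 1 and 3. SNORD78 gave 132, 393 and 92 of them, which is 26.8%, 64.2% and 28.8% of its reads. SNORD44 gave 166, 298 and 99, or 26.9%, 44.1% and 21.1%. Together they held 12.5%, 21.2% and 8.30% of all short snoRNA reads. As a share of a member's own reads, short reads were on average as common in less abundant members: 44.7% ± 22 (SD, n = 3) in SNORD81, 42.2% ± 8.2 in SNORD77 and 30.4% ± 17 in SNORD74, against 39.96% ± 21 in SNORD78 and 30.7% ± 12 in SNORD44. Without library 2 these means were 36.0%, 44.1%, 20.8%, 27.8% and 24.01%.

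For the 10 members in sum, short reads were 21.4%, 41.0% and 14.5% of reads, against 10.3%, 21.3% and 10.99% in other box C/D snoRNAs, higher in 3 of 3 libraries. With SNORD44 and SNORD78 left out, a subset chosen after seeing the values, the other 8 members had 15.1%, 23.8% and 9.41%, which in library 3 is below the other box C/D snoRNAs. SNORD75 had 8, 8 and 7 short reads, the fewest of the members.

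The members differed in which side their short reads came from. Reads were put on the 5′ or 3′ side according to where their midpoint fell relative to the middle of the snoRNA. SNORD44 and SNORD47 gave mostly 5′ reads, and SNORD74, SNORD77, SNORD78 and SNORD81 mostly 3′ reads. The direction was the same in 3 of 3 libraries for 9 members, all but SNORD75, although only 6 passed the test described next. How many of all snoRNAs kept their direction was not counted, so the count of 9 is a description only and not a trait of the members. Outside GAS5, SNORD24 kept its direction too, with 38, 64 and 52 reads on the 5′ side against 13, 18 and 13. SNORD25, which is SNHG1-hosted, did not, with 3, 5 and 13 against 7, 18 and 4.

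The side was tested with edgeR's quasi-likelihood test on the 3′ and 5′ reads of each library (library as block, 1 library size for both sides, Benjamini-Hochberg over 133 snoRNAs with at least 10 placed short reads in all). SNORD44 had 162, 279 and 89 reads on the 5′ side and 4, 19 and 10 on the 3′ side (log2 ratio of 3′ to 5′ reads -4.01 ± 0.53, SE, edgeR adjusted p = 4.357e-11). SNORD47 had 13, 8 and 11 against 3, 1 and 1 (-2.65 ± 0.97, edgeR adjusted p = 0.02919). The sides of both did not overlap between libraries, but SNORD47 rests on 37 reads. Positions of SNORD47 also reached only 65 against a RefSeq length of 77 nt. If its entry lacks part of the 3′ end, short reads from there are missing from this count.

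On the 3′ side, SNORD78 had 102, 301 and 66 reads, and 30, 92 and 26 on the 5′ side (1.61 ± 0.46, SE, edgeR adjusted p = 0.004357). SNORD74 had 18, 70 and 20 against 4, 12 and 10 (1.90 ± 0.59, edgeR adjusted p = 0.009705). SNORD77 had 13, 42 and 20 against 3, 2 and 2 (3.23 ± 0.74, edgeR adjusted p = 0.0002912). SNORD81 had 15, 20 and 16 against 3, 3 and 4 (2.30 ± 0.76, edgeR adjusted p = 0.01599). In SNORD74, SNORD77 and SNORD81 the lowest library on the 3′ side was above the highest on the 5′ side, and in SNORD78 the ranges of the sides overlapped because library 2 was high on both.

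The other 4 did not pass. SNORD79 had 16, 16 and 17 reads on the 5′ side and 2, 8 and 5 on the 3′ side (-1.76 ± 0.72, SE, edgeR adjusted p = 0.05184). SNORD80 had 20, 12 and 20 against 8, 7 and 2 (-1.64 ± 0.71, edgeR adjusted p = 0.06858), and SNORD76 had 14, 10 and 7 against 5, 6 and 1 (-1.44 ± 0.85, edgeR adjusted p = 0.1883). SNORD75 had 3, 4 and 6 against 5, 4 and 1.

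A 5′ call in 2 of 10 members compares with 15.8% of all snoRNAs tested, and a 3′ call in 4 of 10 with 12%. Many of the snoRNAs tested had few short reads. Among the 48 with at least 10 in every library, 11 were called toward 5′ and 9 toward 3′. For the 7 members among these 48 the calls were 2 and 4. None of the 8 SNHG1-hosted snoRNAs tested was called by edgeR, and the median log2 ratio was -0.93 over the GAS5-hosted, -0.23 over the SNHG1-hosted and -0.50 over all tested. With TMM scaling, which moved the log2 ratios by a median of 0.54, the split over all snoRNAs was 10 toward 5′ and 17 toward 3′ in place of 21 and 16, and SNORD47 lost its call (adjusted p = 0.0997). SNORD44 and SNORD77 kept theirs in 12 of 14 alternatives, SNORD74 in 11, SNORD78 and SNORD81 in 10 and SNORD47 in 6 of 13. SNORD47 was also lost with reads of up to 30 nt (edgeR adjusted p = 0.06223), column totals (0.05386) and DESeq2 (0.1009), and SNORD81 with DESeq2 (0.06232). Without library 2 or library 3 no snoRNA was called by edgeR (smallest adjusted p of 0.215 and 0.206, with 22 of 114 and 21 of 112 at an unadjusted p under 0.05), and without library 1 SNORD47, SNORD78 and SNORD81 lost their calls. Without the library block SNORD74 (2.18) and SNORD78 (1.68) lost theirs.

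**Figure D3:**
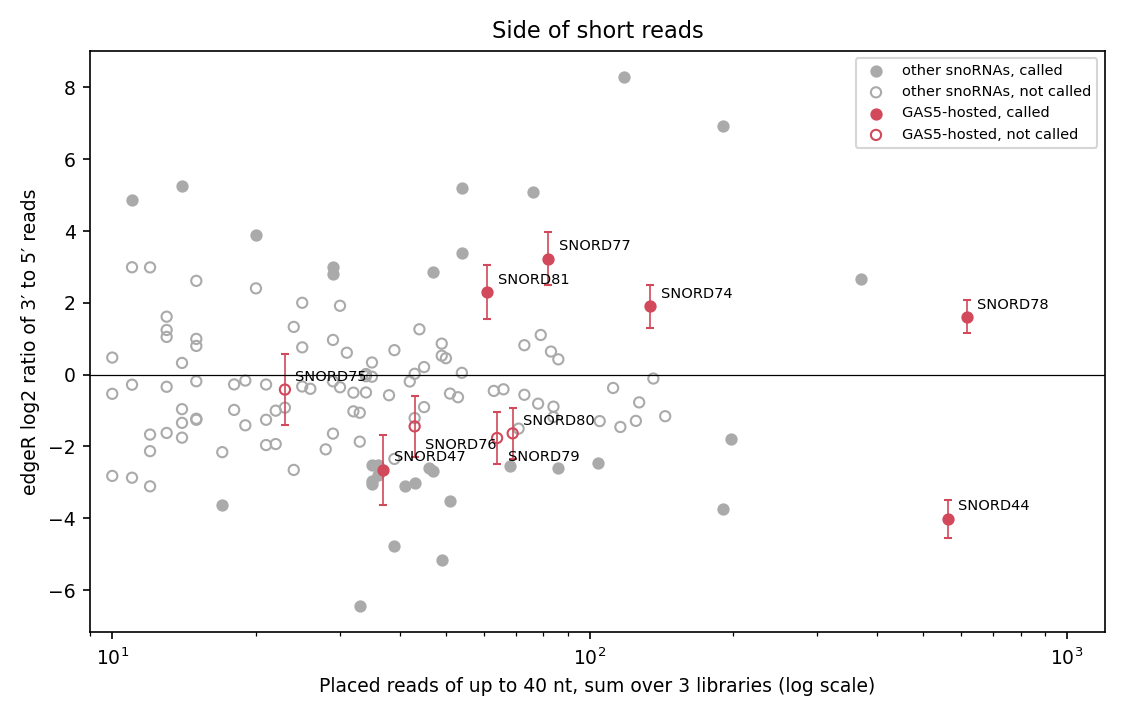
edgeR log2 ratio of 3′ to 5′ short reads (y axis) against the number of placed short reads over the 3 libraries (x axis, log scale) for 133 snoRNAs. Filled points passed an adjusted p of 0.05, red points are GAS5-hosted, with bars of 1 SE. SNORD78 and SNORD44 have the most short reads and lie on opposite sides of 0.

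Most short reads kept one end of the full-length RNA. Within 2 nt of the commonest start lay 501 of 563 short reads of SNORD44, and within 2 nt of the commonest end 447 of 617 of SNORD78, 70 of 82 of SNORD77, 93 of 134 of SNORD74 and 45 of 61 of SNORD81. Reads that kept neither end were 29 in SNORD44, 27 in SNORD78, 16 in SNORD74 and 6 each in SNORD77 and SNORD81.

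The inner ends lay at few positions in the abundant fragments. In SNORD78 the read from 35 to 63, 29 nt long, had 64, 181 and 47 reads. It was the commonest short read of any member and the second commonest SNORD78 read after the near full-length 2 to 63 (266, 177 and 156). Short RNAs from the 3′ side of SNORD78 have been described in prostate cancer. Of the 447 short reads at its 3′ end, 364 began at 35 and 69 at 36, and of 143 at its 5′ end 79 stopped at 29. Positions 30 to 34 were thus left between the main 5′ and 3′ fragments.

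In SNORD44 the commonest short read ran from 2 to 32 with 54, 148 and 32 reads, followed by 1 to 28 (26, 33 and 8) and 2 to 28 (18, 30 and 12). Of 501 short reads at the 5′ end 241 stopped at 32 and 127 at 28. In RefSeq numbering SNORD44 holds 2 inner CTGA, at 23 to 26 and at 27 to 30. The stop at 32 lies 2 nt past the second. The stop at 28 lies 2 nt past the first but also inside the second. The main end of the RNA lies 2 nt past the D box, which was the condition for reading this member against the letters. Of 33 short reads at the 3′ end 8 began at 29 and 7 at 28, inside the second CTGA. The 5′ fragments then read as follows, with the nearest CTGA before the stop in capitals.
SNORD44 2 to 32: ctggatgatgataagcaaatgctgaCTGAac
SNORD44 1 to 28: cctggatgatgataagcaaatgCTGAct

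SNORD74 and SNORD81 each hold an inner CTGA too, at 35 to 38 and at 41 to 44. In SNORD74 the short reads at the 3′ end most often began at 40 (49 of 93 reads) or 39 (15), which is 2 or 1 nt past that CTGA, and the read from 40 to 68 had 6, 26 and 7 reads. In SNORD81 they most often began at 45 (17 of 45), the base after the CTGA, and the read from 45 to 72 had 2, 4 and 4 reads. The 5′ fragments of SNORD74 most often stopped at 27 (13 of 25), away from its CTGA. In SNORD81 the stops of 5′ fragments at 23, 29 and 31 had 2 of 10 reads each, all before its CTGA. SNORD77 holds no inner CTGA, and its 3′ fragments most often began at 35 (40 of 70), with 2, 25 and 7 reads from 35 to 65. These positions were compared after the reads had been seen, and the match with CTGA is a description.

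In SNORD76, SNORD79, SNORD80 and SNORD47 no short read had more than 7 reads over the libraries. The commonest were 2 to 38 in SNORD76 (2, 4 and 1 reads), 5 to 28 in SNORD79 (3, 0 and 1) and 1 to 19 in SNORD47 (5, 0 and 0). As a share of the member's short reads, 2 to 38 in SNORD76 (16.3%) was close to 45 to 72 in SNORD81 (16.4%). Of 29 short reads at the 5′ end of SNORD76, 10 stopped at 38. In SNORD80 the reads 3 to 21, 3 to 22 and 3 to 32 had 5 reads each over the libraries. The inner ends of SNORD79 and SNORD80 were spread out, with at most 6 reads at one position, against 364 in SNORD78.

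**Figure D4:**
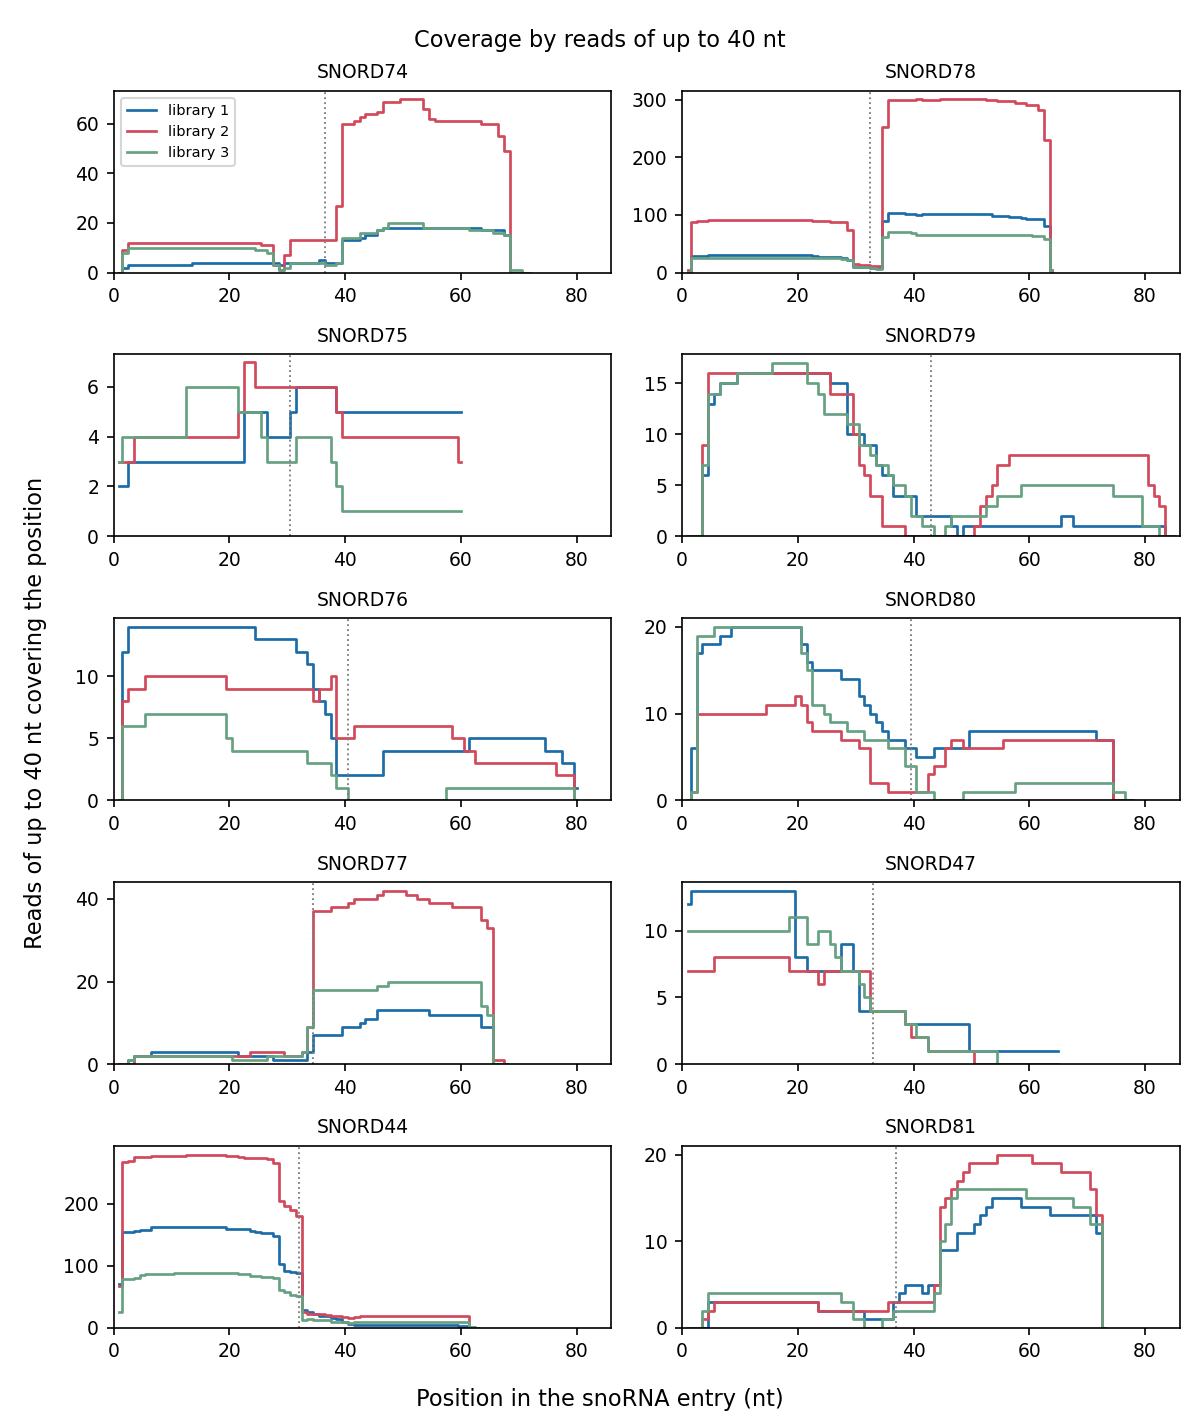
Number of reads of up to 40 nt (y axes) covering each position of the snoRNA entry in nt (x axes), for each member and library. Dotted lines mark the middle of the entry. SNORD78, SNORD77 and SNORD74 show a block at the 3′ side with a sharp start at 35, 35 and 40, SNORD44 a block at the 5′ side that falls in steps after 28 and 32, and SNORD79 and SNORD80 a gradual decline from the 5′ end.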

How the data were processed

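Reads in 3 small RNA libraries of HEK293 cells were analysed as deposited. Each deposited line gives a distinct read's count, length, first and last position in nt within its entry. The counts are whole numbers as the authors deposited them, and no header records a normalization. Libraries were made with an Ion Total RNA-Seq kit after a bead clean-up for small RNA, per the labels' protocols. Per the submitters' processing notes, GRCh38.p10 was used. For the aligner, trimming and filters, the steps are not given in the sources used. A second deposited table of counts was not used, and 2 of its columns match no sample title. Libraries are numbered in deposition order.

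Shares of counts have exact (Clopper-Pearson) 95% intervals. edgeR 4.0.16 was the main test and DESeq2 1.42.0 an alternative (R 4.3.3, Python 3.11.15, pandas 2.3.3, SciPy 1.17.1). Reads on the opposite strand were left out of both tests; the members had 0. All 10 members were named. Commonest reads and commonest short reads were named by rule, though they are not printed for every member. Other reads and inner ends were chosen after their values were seen. The members and lists were chosen with earlier results of these data known. RefSeq matched 239 of 260 entries for annotated lengths. Both tests were tested on simulated data with known differences. Alternatives were other length limits and definitions, scalings, count minimums, no library block and each library left out.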

Additional observations from a re-analysis of the deposited data

How the results depend on the processing

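The sum of the members' shares stayed within 1 SD of its main value in 7 of 7 alternatives. With each distinct read counted once, the levels of SNORD76 (0.579), SNORD79 (1.70) and SNORD80 (2.36% per 100 nt) moved by more than that. For the side of short reads, calls toward 5′ and 3′ over all snoRNAs were 11 and 9 with at least 10 reads in every library (48 tested) and 11 and 9 with DESeq2, and 10 calls went toward 5′ with TMM. Members called toward 5′ fell to 1 with column totals, TMM and DESeq2, and members called toward 3′ to 2 with no replicate block. Without 1 library each, 0 to 6 snoRNAs were called toward 5′ and 0 to 8 toward 3′, and 0 to 1 and 0 to 2 members. SNORD75 turned to 0.13 with TMM, 0.11 without gapped reads and, without 1 library each, ranged from -1.03 to 0.35, with no call. For full-length reads, lower calls over all snoRNAs were 31 with a limit of 80%, 30 with DESeq2 and 24 with both ends within 5 nt of the commonest ends, an alternative added after seeing the data. Higher calls were 45 with column totals and 17 with no replicate block. Members called lower were 1 with column totals, 2 with DESeq2, 3 with at least 10 counts in all and 1 with no replicate block, and members called higher were 1 with a limit of 95% and 1 with no replicate block. Without 1 library each, 26 to 37 snoRNAs were called lower and 15 to 28 higher, and 1 to 2 members in each direction. SNORD80 turned to -6.18 with the 95% limit, since its main read spans 72 of 78 positions. With column totals SNORD44 turned to 0.085 and SNORD47 to 0.19, and without 1 library each SNORD47 ranged from -0.57 to 0.21. For the other changes the cause was not tested. Most members had few short reads, so the side test could detect only large ratios in them.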

Other observations

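Reads of 20 to 24 nt were rare in the abundant members: 24 reads in SNORD44 (1.43% ± 0.61 of its reads, SD, n = 3), 23 in SNORD78 (1.47% ± 0.74) and 10 in SNORD80 (0.741% ± 0.24). Their mean share was higher in SNORD77 (8.17% ± 9.7, 11 reads), SNORD81 (8.10% ± 5.2, 10 reads) and SNORD74 (6.03% ± 2.3, 26 reads), and lowest in SNORD75 (0.382% ± 0.33, 2 reads). Over all reads of a list, such reads were 1.92% ± 0.23 in the 10 members. They were 2.72% ± 0.90 in the SNHG1-hosted and 3.30% ± 1.3 in box C/D snoRNAs outside GAS5. SNORD77 had 6 of its 11 such reads in library 1, where it had 31 reads in all.

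Reads whose length differed from the span of their positions, as gapped alignments do, made up 46.2%, 36.0% and 41.5% of SNORD79 reads, 41.2% ± 5.1 (SD, n = 3). In the other members the mean was 10.0% (SNORD77) to 19.1% (SNORD81), and in box C/D snoRNAs outside GAS5 it was 22.02% ± 2.9. The share in SNORD79 was above that of the other 9 members in 3 of 3 libraries.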
